A study of Mus musculus with 6 samples.

Results

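Genes of cholesterol synthesis, sterol uptake and transport, and control by the transcription factor SREBP2 were examined in 4T1, a tumorigenic and metastatic cell line from a mouse mammary carcinoma. The genes were chosen by name and function, with earlier results of these data known, and 29 of the 32 listed genes were measured, out of 18193 genes in all. Acat2, Soat1 and Nr1h2 had no probe set with a single gene symbol and were not analysed here. Each gene is represented by its probe set with the highest mean over the 6 arrays. NFAT1 shRNA cells were 4T1 cells transduced with a vector that expresses a short hairpin RNA against NFAT1, the calcium-regulated transcription factor encoded by Nfatc2. Control shRNA cells were the same line transduced with a control vector, and both groups were collected from culture after 10 days of selection. Each group had 3 Affymetrix arrays. The labels name neither the hairpin sequence nor whether the samples of a group were separate cultures, so p-values measure no more than the spread among these 6 arrays, and that spread may be technical.

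Cells make cholesterol from acetyl-CoA through mevalonate, a chain of isoprenoid diphosphates, squalene and a series of sterols. When membranes of the endoplasmic reticulum hold little sterol, SCAP carries the precursor of SREBP2 to the Golgi, where it is cut, and the released fragment raises transcription of most of these enzymes. INSIG proteins hold SCAP back when sterol is plentiful, and the LXR receptors respond to oxidised sterols by promoting export and by lowering receptor uptake. The comparison asks whether the NFAT1 shRNA altered the transcripts of this pathway relative to the control vector. All levels are log2 RMA signals, on which a difference of 1 is 2-fold, and all differences are NFAT1 shRNA minus control shRNA. Whole cultures were measured, so fewer cells of a kind and less RNA per cell cannot be told apart.

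The arrays of the groups were not evenly spaced. NFAT1 shRNA 1 was closer to the control arrays (Pearson r of 0.991 to 0.995) than to NFAT1 shRNA 2 and 3 (0.986 and 0.985). Control shRNA 3 lay between the other controls for 157 of 157 genes with at least a 2-fold range over the controls and a control signal of at least 7. It also lay between them for 23 of the 29 pathway genes, but this was not counted over all genes, so that count has no background. Of the 6 probe sets of Nfatc2, 4 were lower and 2 were higher in NFAT1 shRNA cells, and none passed the test (lowest adjusted p = 0.0707), so arrays are called by their labels. The epithelial markers Epcam, Cdh1, Krt8, Krt18, Krt14 and Cldn7 were bright, with mean signals of 8.41 to 13.12 in NFAT1 shRNA cells and 10.54 to 13.03 in control cells (Krt14 differed by -2.12, adjusted p = 0.123). Of 6 fibroblast markers, 5 had a mean below the median signal of the arrays (5.42 to 5.48), as did 3 of 5 leukocyte markers and all 3 adipocyte markers measured. Above it were the fibroblast marker Pdgfra, with a mean signal of 7.47, and the leukocyte markers Csf1r (8.17) and Cd68 (6.92).

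Synthesis enzymes were mostly lower in NFAT1 shRNA cells, but no member passed the test over all genes. With limma and an adjusted p under 0.05, 0 of 29 members were called, beside 0.511% of all genes (93 of 18193). With an unadjusted p under 0.05, 9 members (31.0%) were lower, beside 7.01% of all genes, and 0 were higher, beside 10.1%. All 3 NFAT1 shRNA arrays lay below all 3 controls for 10 members (34.5%), beside 8.61% of all genes, and above them for 1 member, beside 14.2%. A lower mean was found for 19 members (65.5%), beside 40.7% of all genes. The median difference was -0.16 over the members, -0.24 over the 18 synthesis enzymes and 0.04 over all genes. The members were bright, with a median signal of 9.18, and among genes reaching a group mean of 6 or more the background was higher. There, 7 of 28 members were lower with an unadjusted p under 0.05, beside 9.98% of those genes. A lower mean was found for 18 of the 28, beside 47.5% of those genes. With quantile normalization again it was found for 19 of 29 members, beside 50.5% of all genes. The 40.7% used below as background has the same limit.

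**Figure D1:**
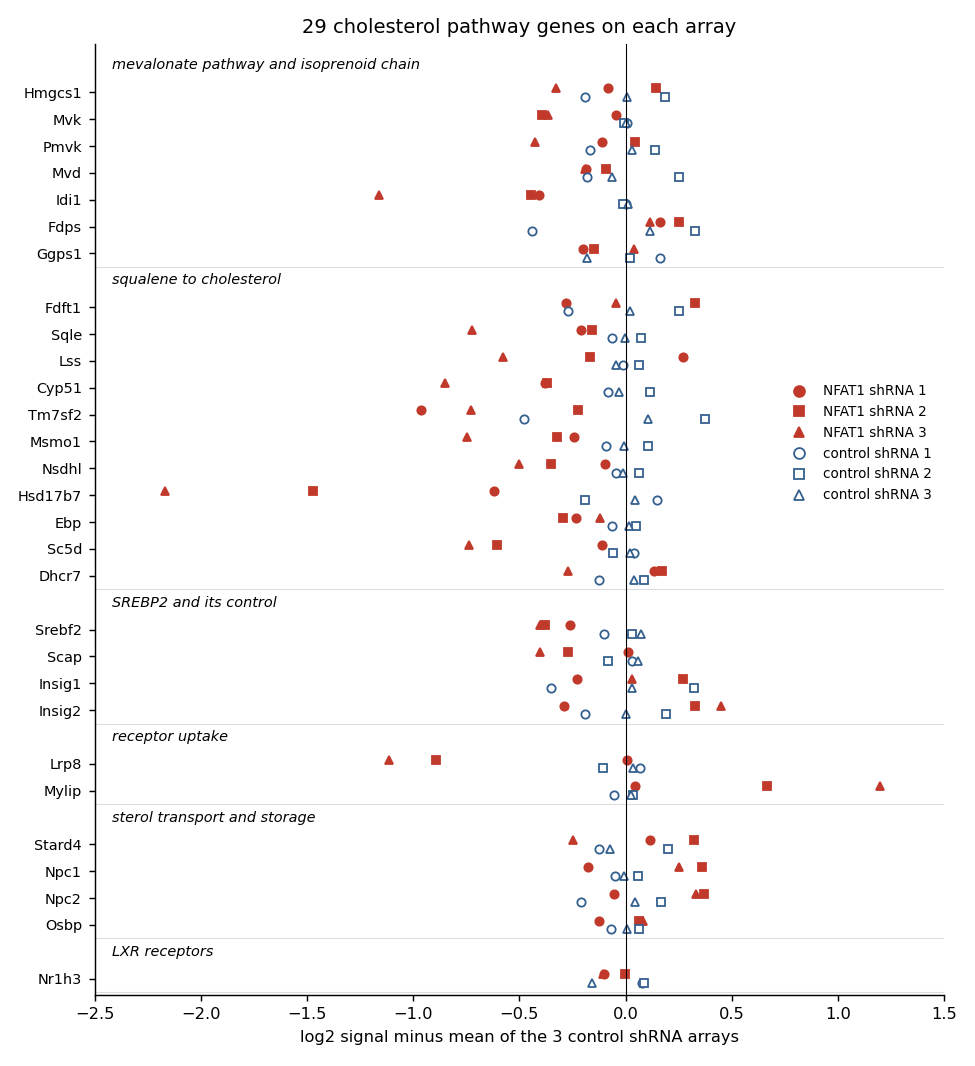
Each point is 1 array, plotted as its log2 signal minus the mean of the 3 control shRNA arrays, for 29 genes grouped by role; filled red symbols are NFAT1 shRNA and open blue symbols control shRNA, with circles, squares and triangles for replicates 1, 2 and 3. Hsd17b7 extends farthest to the left, Mylip farthest to the right, and Idi1 and Mvk show controls that almost coincide.

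The first part of the pathway runs from Hmgcs1, which makes HMG-CoA, to the isoprenoid diphosphates. The NFAT1 shRNA mean was the lower one for 6 of its 7 measured genes, beside 40.7% of all genes. Idi1, the isomerase that makes dimethylallyl diphosphate, read 10.73, 10.69 and 9.97 on NFAT1 shRNA arrays 1 to 3, against 11.14, 11.12 and 11.15 on control arrays 1 to 3. The groups did not overlap, the controls lay within 0.0249 of each other, and NFAT1 shRNA 3 was by far the lowest array. The difference was -0.67 ± 0.20 (SE), a level 62.7% of control (adjusted p = 0.209). Mvk, mevalonate kinase, read 7.55, 7.20 and 7.23 in NFAT1 shRNA cells, against 7.60, 7.58 and 7.59 in control cells. NFAT1 shRNA 1 lay just under the controls and the other NFAT1 shRNA arrays clearly below them, with a difference of -0.27 ± 0.11 (SE, adjusted p = 0.290).

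The other genes of this stretch overlapped between the groups. Hmgcs1 was among the brightest enzymes, with 11.29 ± 0.24 in NFAT1 shRNA cells and 11.38 ± 0.19 in control cells (SD, n = 3 each), a difference of -0.09. The phosphomevalonate kinase gene Pmvk differed by -0.16, the mevalonate decarboxylase gene Mvd by -0.16, and Ggps1, which makes geranylgeranyl diphosphate, by -0.10. Fdps, the farnesyl diphosphate synthase gene, was the exception in sign at 0.18, with 10.70, 10.79 and 10.66 in NFAT1 shRNA cells, against 10.10, 10.87 and 10.66 in control cells. Control shRNA 1 was low here, and without it the difference was -0.04. For Hmgcs1, Pmvk, Mvd, Fdps and Ggps1 the range over the controls exceeded the difference between the groups.

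The second part turns farnesyl diphosphate into squalene and then cholesterol. NFAT1 shRNA means were below control means for 9 of its 11 genes (median difference -0.36), beside 40.7% of all genes. For 7 of the 11 all NFAT1 shRNA arrays lay below all controls, beside 8.61% of all genes. Hsd17b7, a ketosteroid reductase that works late in removing methyl groups from the sterol ring, had the largest difference of all members. It read 8.49, 7.64 and 6.95 in NFAT1 shRNA cells, against 9.26, 8.92 and 9.16 in control cells. The NFAT1 shRNA arrays were spread over 1.55 and the controls over 0.34, with no overlap. The means were 7.69 ± 0.78 and 9.11 ± 0.17 (SD, n = 3 each; NFAT1 shRNA, then control), so the level was 37.4% of control (difference -1.42 ± 0.37 SE, adjusted p = 0.169).

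Msmo1 and Nsdhl act with Hsd17b7 in that demethylation, and both were lower as well. Msmo1, the methylsterol monooxygenase gene, read 11.06, 10.98 and 10.56 in NFAT1 shRNA cells, against 11.21, 11.41 and 11.30 in control cells (difference -0.44, adjusted p = 0.233). Nsdhl, a sterol dehydrogenase gene, read 9.19, 8.93 and 8.78 in NFAT1 shRNA cells, against 9.24, 9.35 and 9.27 in control cells (difference -0.32, adjusted p = 0.262). In each case NFAT1 shRNA 3 was lowest and NFAT1 shRNA 1 nearest to the controls. Cyp51, the demethylase that acts on lanosterol, read 9.92, 9.93 and 9.45 in NFAT1 shRNA cells, against 10.22, 10.41 and 10.27 in control cells. Its difference was -0.53 ± 0.15 (SE, adjusted p = 0.188), a level 69.1% of control.

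Sc5d, a sterol desaturase near the end of the pathway, read 9.60, 9.10 and 8.97 in NFAT1 shRNA cells, against 9.75, 9.65 and 9.73 in control cells (difference -0.49, adjusted p = 0.238). Ebp, the sterol isomerase before it, read 9.83, 9.77 and 9.94 in NFAT1 shRNA cells, against 10.00, 10.11 and 10.08 in control cells (difference -0.22, adjusted p = 0.272). Ebp departed from the other enzymes whose groups did not overlap in that NFAT1 shRNA 3 was its highest NFAT1 shRNA array. Sqle, the squalene epoxidase gene, read 10.92, 10.97 and 10.40 in NFAT1 shRNA cells, against 11.06, 11.20 and 11.12 in control cells (difference -0.36, adjusted p = 0.307). Tm7sf2, a sterol reductase, was the dimmest enzyme and overlapped between groups, with 6.33, 7.07 and 6.57 in NFAT1 shRNA cells, against 6.82, 7.67 and 7.40 in control cells. Its controls ranged over 0.85, more than its difference of -0.64 (adjusted p = 0.294).

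Not every enzyme of this part had a lower mean. Fdft1, squalene synthase, had 10.54 ± 0.30 in NFAT1 shRNA cells and 10.54 ± 0.26 in control cells (SD, n = 3 each). Dhcr7, the reductase of the last step, differed by 0.01, with a standard error of 0.14 (adjusted p = 0.972). Lss, lanosterol synthase, was lower on average (difference -0.16, adjusted p = 0.7) but uneven. It had its highest signal of the 6 arrays on NFAT1 shRNA 1 (9.51) and its lowest on NFAT1 shRNA 3 (8.66), around controls of 9.19 to 9.31. The signs of these 3 genes and of Hmgcs1, Fdps and Ggps1 turned in at least 1 setting.

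**Figure D2:**
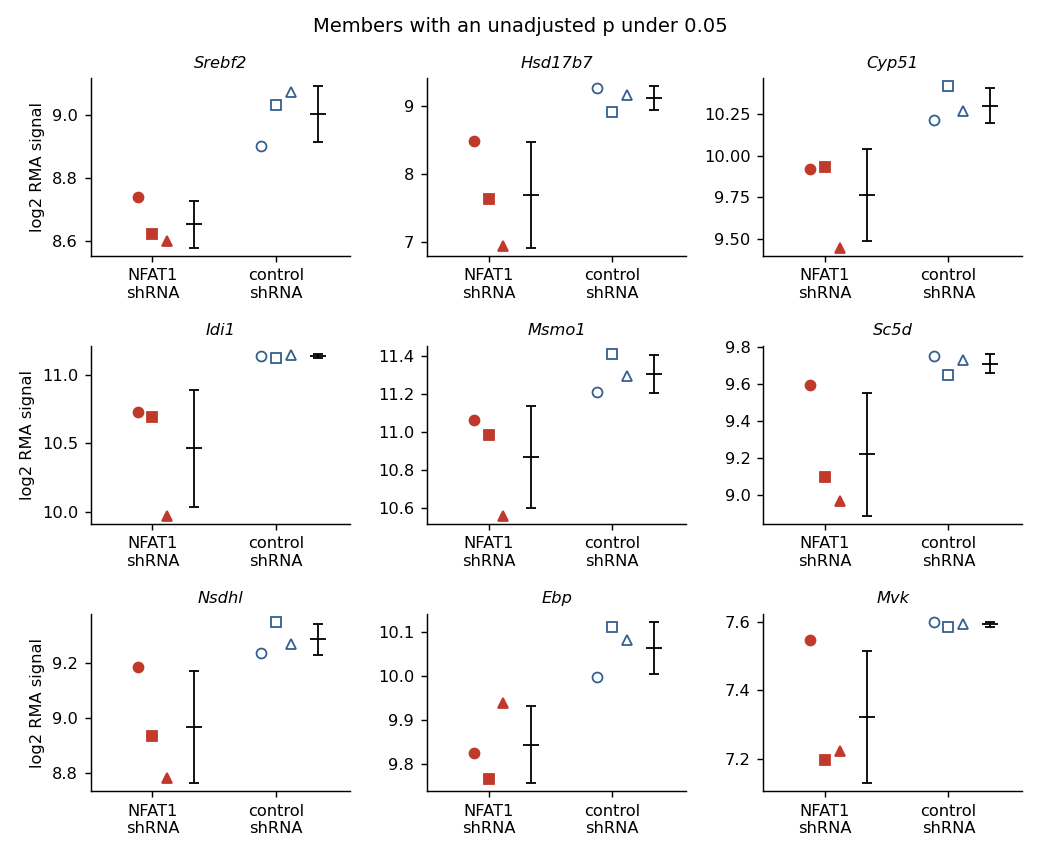
The log2 RMA signals of the 9 members with an unadjusted p under 0.05 are shown for NFAT1 shRNA (filled red) and control shRNA (open blue) arrays, with circles, squares and triangles for replicates 1, 2 and 3; black bars are means with SD (n = 3), and each panel has its own vertical range that does not start at 0. In all 9 panels the groups do not overlap, and NFAT1 shRNA 3 is the lowest array except for Ebp and Mvk.

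The transcript of SREBP2 was lower by a small and even amount on 1 probe set. Srebf2, its gene, read 8.74, 8.62 and 8.60 in NFAT1 shRNA cells, against 8.90, 9.03 and 9.07 in control cells. The NFAT1 shRNA arrays lay within 0.14 of each other and below all controls, and the difference of -0.35 ± 0.09 (SE) had the smallest p of all members (adjusted p = 0.161). The other Srebf2 probe set, 1452174_at, with a mean signal of 8.06, differed by -0.03, so the lower signal was seen on 1 of the 2 probe sets. Scap, the escort of SREBP2, read 10.34, 10.06 and 9.92 in NFAT1 shRNA cells, against 10.36, 10.24 and 10.38 in control cells. NFAT1 shRNA 1 lay within the controls and the others below them (difference -0.22, adjusted p = 0.379).

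The inhibitors of this escort did not differ beyond the spread between arrays. Insig1, itself a target of SREBP2, read 9.93, 10.43 and 10.19 in NFAT1 shRNA cells, against 9.81, 10.49 and 10.19 in control cells (difference 0.02 ± 0.20 SE, adjusted p = 0.958). The groups overlapped fully and array 2 was the highest in both. Insig2, an isoform known in mouse liver for a separate, insulin-sensitive control, read 8.81, 9.42 and 9.55 in NFAT1 shRNA cells, against 8.91, 9.29 and 9.10 in control cells. NFAT1 shRNA 1 was its lowest array and NFAT1 shRNA 3 its highest (difference 0.16, adjusted p = 0.703).

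The members that bear on receptor uptake went in opposite directions, and neither passed. Lrp8, a lipoprotein receptor of the LDL receptor family that also binds reelin, read 9.08, 8.19 and 7.96 in NFAT1 shRNA cells, against 9.15, 8.97 and 9.11 in control cells. NFAT1 shRNA 1 lay among the controls, while the other NFAT1 shRNA arrays were lower (difference -0.67 ± 0.28 SE, adjusted p = 0.293). Mylip, the ubiquitin ligase that marks receptors of this family for degradation and is a target of the LXRs, read 8.27, 8.89 and 9.42 in NFAT1 shRNA cells, against 8.17, 8.26 and 8.25 in control cells. It was the only member with all NFAT1 shRNA arrays above all controls, although NFAT1 shRNA 1 exceeded them narrowly (difference 0.64 ± 0.27 SE, adjusted p = 0.298). Nr1h3, the gene of LXR alpha, was the dimmest member, with 5.64 ± 0.06 in NFAT1 shRNA cells and 5.71 ± 0.14 in control cells (SD, n = 3 each).

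Genes of sterol transport had slightly higher means, all within the overlap of the groups. Npc2, which hands cholesterol from lysosomal lipoproteins to NPC1, was the brightest member at 12.76 ± 0.24 in NFAT1 shRNA cells and 12.55 ± 0.19 in control cells (SD, n = 3 each; difference 0.21, adjusted p = 0.481). Npc1, the lysosomal membrane transporter, differed by 0.14, the cytosolic sterol carrier gene Stard4 by 0.06 and the oxysterol-binding protein gene Osbp by 0.0075. Of the other Stard4 probe sets, 1 differed by 0.07 and 1 by -0.41. For Stard4 and Osbp the sign turned in at least 1 setting. The median difference over these 4 genes was 0.10, against 0.04 over all genes.

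How many members were called depended on NFAT1 shRNA 1. Without it, 9 members were called lower with an adjusted p under 0.05 (31.0%), beside 7.84% of all genes, and 1 was called higher, beside 10.6%. The 9 were Hsd17b7 (-1.82), Lrp8 (-1.003), Idi1 (-0.81), Sc5d (-0.67), Cyp51 (-0.61), Msmo1 (-0.53), Nsdhl (-0.43), Srebf2 (-0.39) and Mvk (-0.38), and the 1 was Mylip (0.93). Adjusted p there ran from 0.00487 for Lrp8 to 0.0488 for Msmo1. With array weights, which give less weight to arrays far from their group, 10 were called lower (the same 9 and Scap), beside 8.56% of all genes, and 1 higher, beside 10.0%. With the replicate number as a block, Tm7sf2 and Hsd17b7 were called lower, beside 2.06% of all genes. Without NFAT1 shRNA 1 and control shRNA 3 together, an alternative added once the data were known, Hsd17b7 and Lrp8 were called lower, beside 0.984%. Leaving out any 1 of the other arrays left 0 members called, but few genes were called there at all: 2 of 18193 without NFAT1 shRNA 2, 66 without NFAT1 shRNA 3 and 0 without each control. At an unadjusted p under 0.05, 6 members were lower without control shRNA 1, beside 4.17% of all genes, 5 without control shRNA 2, beside 5.58%, and 4 without control shRNA 3, beside 3.87%.

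**Figure D3:**
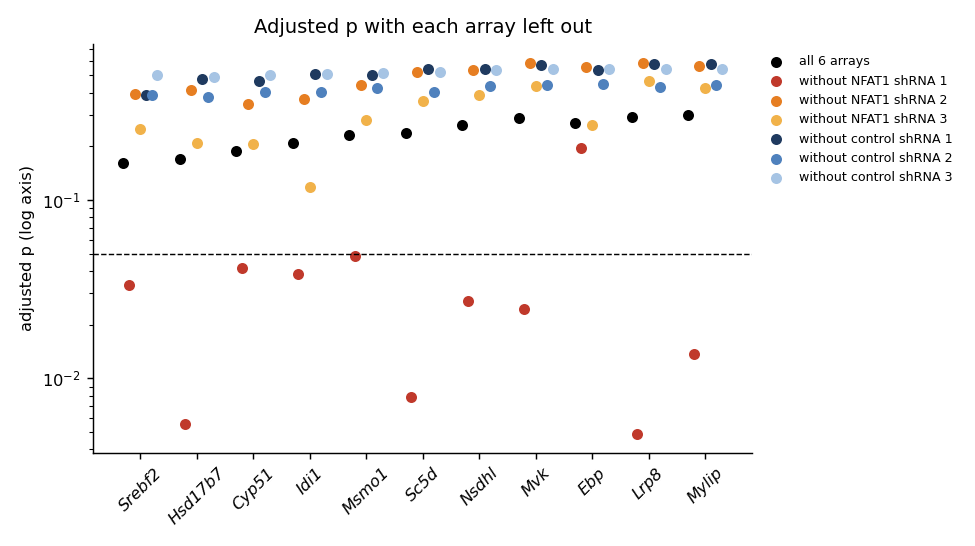
The adjusted p of limma is shown on a log axis for 11 members with all 6 arrays (black) and with each array left out in turn; the dashed line marks 0.05. Only without NFAT1 shRNA 1 do points lie under the line, for all of these members but Ebp.

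Probe sets of the same gene mostly went the same way. The 29 members had 64 probe sets, of which 43 (67.2%) were lower in NFAT1 shRNA cells, beside 45.8% of all 45037 probe sets. With an unadjusted p under 0.05, 21 (32.8%) were lower, beside 7.65% of all probe sets, and 0 were higher, beside 8.03%. None of the 64 passed the adjusted threshold, beside 0.2% of all probe sets. Of 18 members with several probe sets, 14 had all of them in 1 direction, and Ggps1, Sc5d, Stard4 and Npc2 did not. Of the 4 Hsd17b7 probe sets, 3 differed by -1.42, -1.37 and -1.13, and the 1 at -0.08 was near background with a mean signal of 3.83. The brightest of them, 1457248_x_at, is of a kind prone to cross-hybridisation, while 1417871_at, with -1.37, is not. A second Cyp51 probe set, 1422533_at, differed by -1.0025 (adjusted p = 0.100 over all probe sets), and a second Idi1 probe set, 1423804_a_at, by -0.84 (adjusted p = 0.0861). All 3 Lrp8 probe sets lay between -0.67 and -0.61. The other 2 Sc5d probe sets differed by -0.03 and 0.01, so the lower Sc5d signal rested on 1451457_at.

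**Figure D4:**
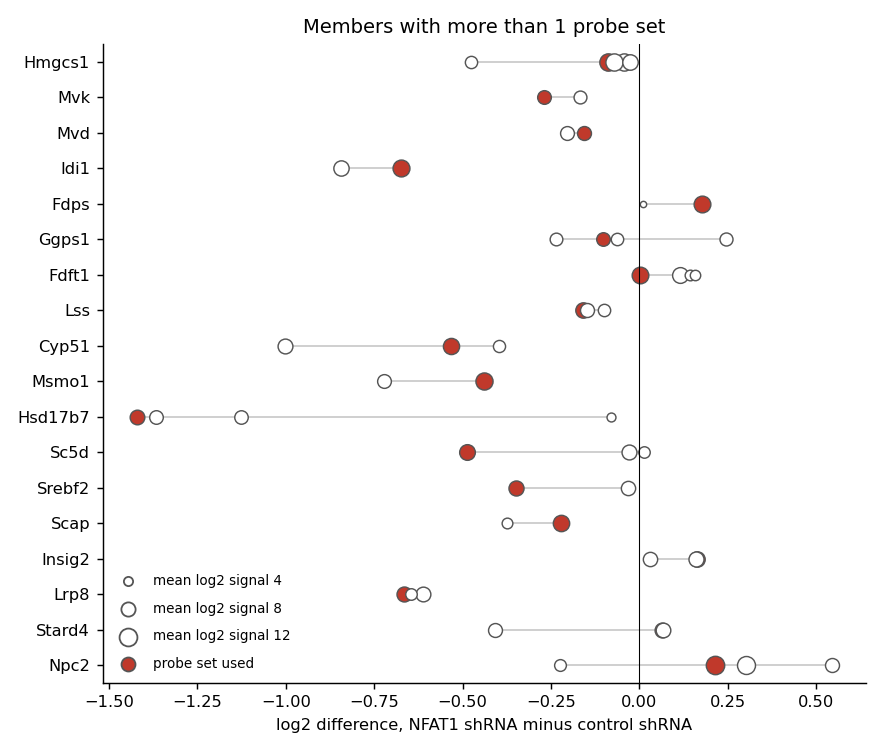
For the 18 members with more than 1 probe set, each circle is a probe set at its log2 difference, NFAT1 shRNA minus control shRNA, with its area growing with the mean signal and the probe set used filled red. Lrp8, Idi1 and the brighter Hsd17b7 probe sets cluster on the left, while those of Srebf2 and Sc5d spread from the left to about 0.

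Whether the members share a control was not tested, and none passed the adjusted test. The promoters of the 5 members with the smallest p are shown. They are the 250 bases before the transcription start, 5′ to 3′ on the strand of the gene, from RefSeq on GRCm38.p6, Srebf2 at chr15:82147019-82147268 (plus strand), Hsd17b7 at chr1:169969206-169969455 (minus strand), Cyp51 at chr5:4104698-4104947 (minus strand), Idi1 at chr13:8885356-8885605 (plus strand), Msmo1 at chr8:64733579-64733828 (minus strand). Capitals mark CCAAT (a motif of NF-Y, a partner of SREBPs), GGGCGG (a GC box), CACGTG (an E-box) and TCACNCCAC (a sterol element core), each on either strand, so that CCAAT can also read ATTGG and GGGCGG can read CCGCCC.
Srebf2: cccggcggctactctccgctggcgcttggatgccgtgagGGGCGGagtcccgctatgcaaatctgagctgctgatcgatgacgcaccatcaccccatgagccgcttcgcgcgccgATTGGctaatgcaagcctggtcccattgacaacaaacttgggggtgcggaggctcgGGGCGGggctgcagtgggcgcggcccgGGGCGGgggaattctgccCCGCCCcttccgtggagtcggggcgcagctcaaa
Hsd17b7: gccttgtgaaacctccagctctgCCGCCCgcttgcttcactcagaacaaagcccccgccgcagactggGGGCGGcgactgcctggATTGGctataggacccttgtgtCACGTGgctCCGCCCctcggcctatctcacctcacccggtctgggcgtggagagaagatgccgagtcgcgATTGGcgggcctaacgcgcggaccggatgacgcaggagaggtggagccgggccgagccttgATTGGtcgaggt
Cyp51: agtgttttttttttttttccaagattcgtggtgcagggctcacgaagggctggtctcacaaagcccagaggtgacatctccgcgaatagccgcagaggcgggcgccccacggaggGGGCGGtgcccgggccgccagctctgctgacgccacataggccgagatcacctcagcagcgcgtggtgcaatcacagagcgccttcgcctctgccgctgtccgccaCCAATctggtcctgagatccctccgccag
Idi1: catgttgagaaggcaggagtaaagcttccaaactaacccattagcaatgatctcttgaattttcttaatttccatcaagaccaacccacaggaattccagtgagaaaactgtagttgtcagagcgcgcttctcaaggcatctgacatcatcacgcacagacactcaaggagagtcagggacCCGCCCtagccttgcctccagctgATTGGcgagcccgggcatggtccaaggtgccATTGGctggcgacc
Msmo1: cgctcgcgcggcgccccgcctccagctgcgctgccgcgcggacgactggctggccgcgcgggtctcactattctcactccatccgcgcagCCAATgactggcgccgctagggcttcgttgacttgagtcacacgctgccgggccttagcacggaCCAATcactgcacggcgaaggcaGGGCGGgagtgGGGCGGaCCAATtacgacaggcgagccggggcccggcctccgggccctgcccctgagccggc
CCAAT stands 3 times in the promoters of Hsd17b7 and Msmo1, 2 times in that of Idi1 and 1 time in those of Srebf2 and Cyp51. A CACGTG stands 143 to 138 bases before the start of Hsd17b7. The same motif was found in Sc5d and Scap, and in Dhcr7 and Insig1, which differed by 0.01 and 0.02.

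Of the 29 members, 24 had a promoter entry. CCAAT was found in 21 of these 24 genes (in 21 of their 33 promoter entries, 63.6%, some genes having several), beside 33.8% of all 32851 entries and 34.7% of those of genes on the array. GGGCGG was found in 22 of the 33 entries (66.7%), beside 32.7% of all entries and 48.3% of those of array genes. CACGTG was found in 15.2% of the entries, beside 6.02% of all and 7.38% of those of array genes, and TCACNCCAC only in that of Hmgcs1, beside 1.05% of all. GGAAA, the core motif bound by NFAT proteins, was found in 57.6% of the members' entries and in 55.6% of all entries (54.2% of those of array genes). By gene, GGAAA stood in 5 of the 9 members with an unadjusted p under 0.05, beside 14 of the 24 members with an entry (58.3%). All 9 held CCAAT and GGGCGG, beside 87.5% and 83.3% of the 24. Shares by gene were not counted over all genes. These are exact matches of letters in a 250-base window, and binding was not measured. Sites that vary from the letters were not counted, so a promoter without a match to TCACNCCAC may still hold a sterol element.

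Genes around the pathway are given to be read beside all genes. Over all genes 0.511% were called, and at an unadjusted p under 0.05, 7.01% were lower and 10.1% higher. Of 10 SREBP processing and sterol-sensing partners, 0 were called, and an unadjusted p under 0.05 was reached by 1 that was higher and 2 that were lower (median difference -0.17). Pgrmc1, a haem-binding membrane protein that interacts with sterol enzymes, differed by -0.39 (adjusted p = 0.170), and Erlin2, which takes part in sterol-regulated degradation in the endoplasmic reticulum, by 0.32 (adjusted p = 0.172). Of 17 genes of other sterol and lipoprotein handling, 0 were called, and an unadjusted p under 0.05 was reached by 5 that were higher and 3 that were lower (median difference 0.22). Gramd1b, which moves cholesterol from the plasma membrane to the endoplasmic reticulum, differed by 0.51 (adjusted p = 0.0887) at a dim 5.53 in NFAT1 shRNA cells and 5.03 in control cells. Osbpl8, a lipid exchanger at membrane contacts, differed by -0.69 (adjusted p = 0.152). The largest differences of this list, picked after their values were seen, were -1.51 for Tmem97, a membrane protein that binds NPC1 (adjusted p = 0.266), and 1.48 for the endocytic receptor gene Lrp1 (adjusted p = 0.182). Tmem97 overlapped between the groups, with 9.39, 7.26 and 7.44 in NFAT1 shRNA cells, against 9.88, 9.08 and 9.66 in control cells. Lrp1 did not overlap, with 8.11, 9.45 and 9.57 against 7.26, 7.92 and 7.53.

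Of 13 genes that use isoprenoids, 0 were called, and 2, both lower, reached an unadjusted p under 0.05, beside 7.01% of all genes. These were Icmt, which methylates prenylated proteins (-0.53, adjusted p = 0.103), and the farnesyltransferase subunit gene Fntb (-0.20, adjusted p = 0.285). Of 15 genes of SREBP1 and fatty acid synthesis, 13 were lower on average (median difference -0.19), 5 of them at an unadjusted p under 0.05. Gpam, the first enzyme of glycerolipid synthesis, was the only one called and fell by 0.72 ± 0.09 (SE, adjusted p = 0.0382), though averaging its probe sets gave a difference of -0.25 (adjusted p = 0.278). Without single arrays other than NFAT1 shRNA 1, its adjusted p was 0.0749 to 0.296. Srebf1, the gene of SREBP1, named here for its role and not by its p, differed by -0.10 (adjusted p = 0.783). Of 7 oxysterol and bile acid enzymes, 0 were called and 0 had an unadjusted p under 0.05. The smallest p-values were those of Cyp7b1 (0.26, adjusted p = 0.409) and the sterol sulfotransferase gene Sult2b1 (0.18, adjusted p = 0.414).

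Genes of growth had lower means in NFAT1 shRNA cells, in the same direction as the synthesis enzymes. All 13 proliferation genes were lower on average, beside 40.7% of all genes. Of these, 0 were called and 5 had an unadjusted p under 0.05, beside 7.01% of all genes. Among the 5 were the mitotic kinase gene Aurka (-0.86, adjusted p = 0.0709) and the helicase gene Mcm2 (-0.43, adjusted p = 0.205). All 12 ribosome biogenesis genes were lower on average too, with 0 called and 3 at an unadjusted p under 0.05, beside the same shares. Examples were Wdr12 (-0.61, adjusted p = 0.244) and Pes1 (-0.57, adjusted p = 0.286). Against the control mean, the median of the 18 synthesis enzymes was -0.20, -0.20 and -0.46 on NFAT1 shRNA 1, 2 and 3, with controls at -0.07, 0.08 and 0.01. The proliferation median was -0.07, -0.49 and -0.58 on the same NFAT1 shRNA arrays, with controls at 0.03, -0.05 and 0.01. The ribosome biogenesis median was 0.01, -0.91 and -0.69, with controls at 0.24, -0.25 and 0.03. NFAT1 shRNA 3 had the lowest median for the enzymes and for proliferation, and NFAT1 shRNA 2 for ribosome biogenesis. Single enzymes differed from their median: Hsd17b7 lay at -0.62 on NFAT1 shRNA 1 and -1.47 on NFAT1 shRNA 2, and Sc5d at -0.11 and -0.61 on the same arrays. Individually, 13 of the 18 enzymes lay below all controls on NFAT1 shRNA 1, 10 on NFAT1 shRNA 2 and 15 on NFAT1 shRNA 3. Such shares on single arrays were not counted over all genes or over the growth genes, so these counts have no background. The part of growth in the lower sterol enzyme signals was not tested.

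**Figure D5:**
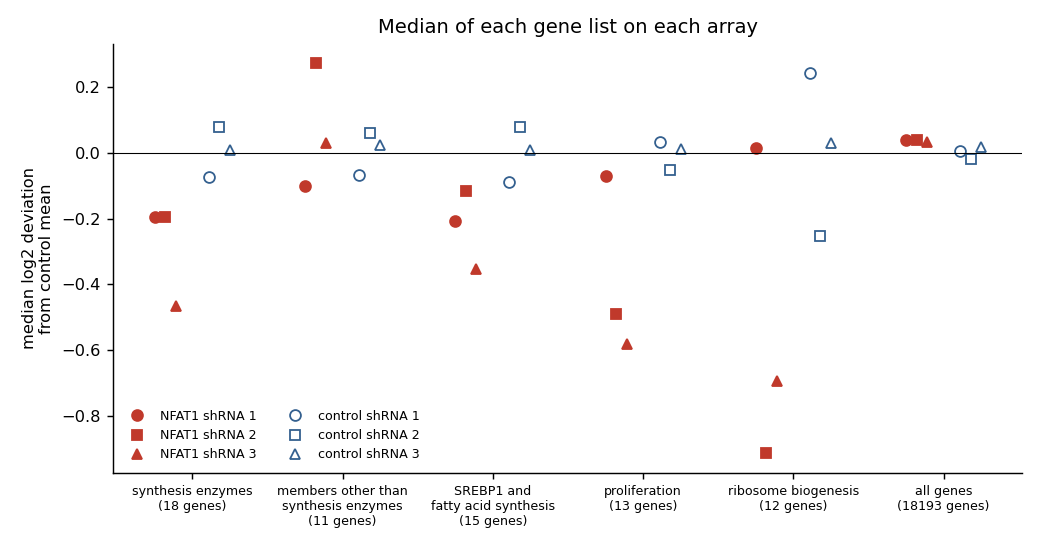
The median log2 deviation from the control mean is shown for each array and 6 gene sets, with filled red symbols for NFAT1 shRNA, open blue symbols for control shRNA, and circles, squares and triangles for replicates 1, 2 and 3. For the synthesis enzymes all NFAT1 shRNA medians lie below the controls, at -0.20, -0.20 and -0.46, and for ribosome biogenesis NFAT1 shRNA 1 lies among the controls.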

How the data were processed

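RNA from 6 samples of 4T1 cells, 3 with NFAT1 shRNA and 3 with control shRNA, was measured on Affymetrix arrays from 200 ng of total RNA each. The deposited values are log2 signals, and the submitters' processing notes name RMA (version not given in the sources used here). RMA corrects background, equalises the arrays' distributions and summarises probes, which would hide a shift common to most transcripts and compresses dim signals. Of 45037 probe sets, the platform annotation gave 34945 a single gene symbol, 932 several and 9160 none, and 34741 were matched by gene number to the GRCm38.p6 table, used for names.

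Groups were compared over 18193 genes by limma 3.58.1 (lmFit, then eBayes) under R 4.3.3, with no covariate and 2-sided p-values adjusted by Benjamini-Hochberg over all genes, and again over all probe sets. The fit was tested on simulated data. Members and gene lists were chosen with earlier results of these data known, so a pattern over the list is no independent evidence. Values on every array are given for SREBP2 and its controllers, for members with an unadjusted p under 0.05 and for some others where groups separated or an array stood out. From each other list the called genes, or else the 2 with the smallest p, are named. Motifs were counted with Python 3.11.15. The number of arrays limits the precision.

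Alternatives left out single arrays, blocked on the replicate number, weighted the arrays, rescaled them, removed dim genes, used a trended and robust prior, or chose probe sets by another rule.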

Additional observations from a re-analysis of the deposited data

How the results depend on the processing

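Over 16 settings the median difference kept its sign and moved from its value with all arrays by less than the spread between arrays (0.11 for the members, 0.15 for the synthesis enzymes), ranging from -0.21 to -0.096 over the members and from -0.39 to -0.20 over the synthesis enzymes, and 18 to 24 members had a lower mean. The count of called members, 0 with all arrays, was 11 with array weights, 2 with the replicate block, 2 without NFAT1 shRNA 1 and control shRNA 3 together, and between 0 and 10 with 1 array left out, the 10 being without NFAT1 shRNA 1. The count of members lower with an unadjusted p under 0.05, 9 with all arrays, was 4 to 12 with 1 array left out, while the share of all genes was 3.87% for the 4 and 13.5% for the 12. The count of higher ones at that threshold, 0 with all arrays, was 1 with quantile normalization again (8.57% of all genes), 2 with array weights (19.7%), 1 with the replicate block (14.2%), 1 without NFAT1 shRNA 1 and control shRNA 3 together (14.1%), and 0 to 4 with 1 array left out (18.7% for the 4, without NFAT1 shRNA 1). The cause of these shifts was not tested. The labels do not say whether same-numbered arrays were grown or run together, and this was not tested. Deviations of same-numbered arrays from their group means correlated at 0.69, 0.54 and -0.04 for replicates 1, 2 and 3. Differently numbered arrays ranged from -0.69 (NFAT1 shRNA 1 with control shRNA 2) to 0.47 (NFAT1 shRNA 3 with control shRNA 2). Deviations within a group of 3 depend on each other, so these values do not settle whether arrays were paired. The replicate block is given here only as a setting. Over all genes tested, 3380 were called with array weights, 792 with the replicate block, 407 without NFAT1 shRNA 1 and control shRNA 3 together, 3349 without NFAT1 shRNA 1 and 63 with a trended and robust variance prior, against 93 with all arrays. Of 479 values of single genes, 423 kept their sign and side of the threshold, 25 newly passed, 8 no longer passed, all of Gpam, and 23 turned in sign, none of them past the threshold. Signs turned with 1 array left out for Hmgcs1 from -0.21 to 0.029, Fdps from -0.044 to 0.34, Fdft1 from -0.16 to 0.14, Lss from -0.37 to 0.050, Dhcr7 from -0.069 to 0.15, Insig1 from -0.15 to 0.19, Stard4 from -0.066 to 0.22, Osbp from -0.030 to 0.074. They also turned with array weights for Ggps1 (0.047), Dhcr7 (-0.010), Nr1h3 (0.074), with array medians subtracted for Fdft1 (-0.019), Dhcr7 (-0.0083), Osbp (-0.012), without NFAT1 shRNA 1 and control shRNA 3 together for Dhcr7 (-0.032), with probe sets averaged per gene for Stard4 (-0.093). Dim members such as Nr1h3 are limited by their low signal.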
